A study of Homo sapiens with 72 samples.

Results

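The regions described here were 984 pairs of protein-coding genes that lie head to head: 1 gene is read from the minus strand, its neighbour from the plus strand, and the starts of their canonical transcripts lie within 1000 bp of each other and point away from each other. They were found from the GENCODE v44 annotation of hg38 alone, with no use of the measured values, among 20033 protein-coding genes. The pairs held 1895 distinct genes at 912 distinct loci, because a gene or a start can enter more than 1 pair, and 79 pairs contained a read-through gene. The region of a pair ran from 1 kb outside 1 start to 1 kb outside the other. The comparison set was 15898 single promoters, meaning starts with no other protein-coding start within 5 kb, each taken as 1 kb to either side of the start. Of these, 10026 were CpG-rich and 1713 had the start of a long non-coding RNA (lncRNA) on the opposite strand within 1 kb behind them.

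Transcription from most promoters is initiated in both directions, but in most of them only 1 direction yields a stable messenger RNA. In a divergent pair both directions yield one, so that a single stretch of open DNA serves 2 genes. Trimethylation of lysine 4 of histone H3 (H3K4me3) marks active and poised starts, dimethylation of the same lysine (H3K4me2) marks starts and enhancers, and trimethylation of lysine 27 (H3K27me3) is placed by Polycomb repressive complex 2 over silenced genes.

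The marks were profiled by Cut&Tag, in which an antibody directs a transposase to cut and tag DNA around the modified histone, in 3 human B cell lines. Raji is a Burkitt lymphoma line that carries Epstein-Barr virus, and NALM6 and REH are B cell precursor acute lymphoblastic leukaemia lines. Each line was left untreated or kept with 1 nM bryostatin (overnight in the labels, about a day in the study), a macrolide that binds and modulates protein kinase C, and each of the 6 groups had 3 replicates for each mark, giving 54 libraries with peak files. Each line is a single cell line, and the labels used here do not say whether replicates came from separate cultures, so that p-values measure only the spread between these libraries.

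In 48 of the libraries the number of mapped reads could be read back from the signal steps, and it ran from 5.12 M to 47.9 M reads. The other 6, replicate 1 of NALM6 in both treatments and all 3 marks, were scaled in another way, and their depth is unknown. H3K4me3 lay over at least 5 of 6 B lineage marker promoters in at least 4 of the 6 libraries of every line and over no T cell marker promoter in any. One library stood apart. In replicate 2 of the untreated Raji H3K27me3 group, 89.9% of the pairs carried a peak, against 0% to 11.1% in the other 17 H3K27me3 libraries. Of its 24143 peaks, 34.6% overlapped H3K4me3 peaks of untreated Raji replicate 3, whereas 1.12% to 3.66% did so in the other 5 Raji H3K27me3 libraries. Of the same peaks, 68.6% overlapped H3K27me3 peaks of untreated Raji replicate 3. Whether this library holds the labelled mark alone was not tested. H3K27me3 results are therefore given with and without it.

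The distance between the starts of a pair ranged from 11 to 1000 bp, with a median of 234 bp and quartiles of 122 and 402 bp. The pairs just inside the limit were HNRNPA2B1/CBX3 at 999 bp and ATP6V1G2/NFKBIL1 at 1000 bp. Those just outside it were ABHD14B/ABHD14A-ACY1 at 1011 bp and ABHD14B/ABHD14A at 1015 bp. A further 115 pairs lay beyond the limit with starts up to 2000 bp apart and were not members.

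The bases that separate the starts are shown for 9 pairs chosen to span the patterns described below, on the plus strand of hg38 and without either start base. Capitals mark matches to 5 short motifs on either strand: the GC box (GGGCGG or CCGCCC), the CCAAT box (CCAAT or ATTGG), an ETS site (CCGGAAGT or its complement), a cyclic AMP response element (TGACGTCA) and a TATA box (TATAAA or its complement). A match is a description of letters and not a bound site. SURF1/SURF2 (chr9:133356488-133356549) and SARS2/MRPS12 (chr19:38930764-38930943) stand for the broad class with H3K4me3 in nearly all libraries, and STX10/IER2 (chr19:13150376-13150410) and SNX5/MGME1 (chr20:17968795-17969017) for the widest H3K4me3 peaks.
SURF1/SURF2: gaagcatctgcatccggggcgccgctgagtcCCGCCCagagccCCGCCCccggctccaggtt
SARS2/MRPS12: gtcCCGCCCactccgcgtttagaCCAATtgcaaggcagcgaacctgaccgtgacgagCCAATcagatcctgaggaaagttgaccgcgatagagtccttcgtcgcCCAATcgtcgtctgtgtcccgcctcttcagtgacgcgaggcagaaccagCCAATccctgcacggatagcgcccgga
STX10/IER2: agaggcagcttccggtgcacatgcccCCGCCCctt
SNX5/MGME1: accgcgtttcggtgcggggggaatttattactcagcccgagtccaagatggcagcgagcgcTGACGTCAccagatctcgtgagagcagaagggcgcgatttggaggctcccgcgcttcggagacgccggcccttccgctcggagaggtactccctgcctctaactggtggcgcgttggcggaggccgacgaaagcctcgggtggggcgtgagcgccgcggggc
CHPF/TMEM198 (chr2:219543810-219544027), DUSP15/TTLL9 (chr20:31870528-31870633) and COL4A1/COL4A2 (chr13:110307158-110307283) differed between lines in H3K4 methylation and carried H3K27me3 in another line or beside it.
CHPF/TMEM198: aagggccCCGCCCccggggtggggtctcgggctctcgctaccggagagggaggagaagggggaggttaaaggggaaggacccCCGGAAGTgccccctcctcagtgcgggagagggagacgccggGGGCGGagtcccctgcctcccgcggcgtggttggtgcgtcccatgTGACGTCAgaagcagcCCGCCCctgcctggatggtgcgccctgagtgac
DUSP15/TTLL9: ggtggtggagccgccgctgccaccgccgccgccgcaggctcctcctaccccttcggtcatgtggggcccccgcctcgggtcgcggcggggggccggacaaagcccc
COL4A1/COL4A2: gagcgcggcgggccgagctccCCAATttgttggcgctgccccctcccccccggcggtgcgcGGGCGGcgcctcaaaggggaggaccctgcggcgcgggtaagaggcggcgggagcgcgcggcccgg
DUOX2/DUOXA2 (chr15:45114173-45114325) and DCST2/DCST1 (chr1:155033782-155033823) had no H3K4 methylation in any library.
DUOX2/DUOXA2: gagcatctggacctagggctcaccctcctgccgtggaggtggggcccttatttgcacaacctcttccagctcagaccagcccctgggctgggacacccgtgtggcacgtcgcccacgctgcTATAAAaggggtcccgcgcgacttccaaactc
DCST2/DCST1: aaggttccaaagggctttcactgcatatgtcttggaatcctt

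The intervals were rich in G and C. The 62 bases between SURF1 and SURF2 were 74.2% GC and held 2 GC boxes, the 180 bases of SARS2/MRPS12 held 4 CCAAT boxes, and both SNX5/MGME1 and CHPF/TMEM198 held TGACGTCA. DUOX2/DUOXA2 was the member of the printed set with TATAAA, and DCST2/DCST1 was the one with no CpG at all in its 42 bases, which were 42.9% GC.

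Over the 300 bases from 250 before to 50 after each start, 90.4% of the genes in pairs were CpG-rich (an observed over expected CpG ratio of at least 0.6 with at least 50% GC), against 63.1% of single promoters, 91.6% of single promoters with a lncRNA behind and 65.5% of all genes. Both starts were CpG-rich in 849 pairs (86.3%), 1 start in 81 and neither in 54. The ETS letters CCGGAAGT were found on either strand in 16.8% of the windows of pair genes, 4.76% of single promoters, 9.46% of those with a lncRNA behind and 6.14% of all promoters. A motif of the factor YY1 was found, as exact letters, in 4.86%, 1.69%, 1.99% and 1.99%. The GFY motif of housekeeping promoters was found in 1.11% of the windows of pair genes against 0.364% of all, the NRF1 motif in 2.90% against 1.69%, TGACGTCA in 4.43% against 2.69% and CACGTG (the E-box) in 11% against 8.76%. GGGCGG was found in 73.6% against 61.3% of all, and was more frequent still, at 78.0%, in single promoters with a lncRNA behind. CCAAT was found in 41.4% against 36.1% of all. TATAAA was the exception, in 3.85% of the windows of pair genes, 10.5% of single promoters, 4.20% of those with a lncRNA behind and 9.71% of all. The windows of a close pair overlap, so that 1 match can count for both genes.

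H3K4me3 was found at most pairs and at under 51% of single promoters in every library. The share of pairs with an overlapping H3K4me3 peak was lowest at 62.1%, had a median of 92.3% and was highest at 94.3% over the 18 libraries, against 19.6%, 43.3% and 50.2% of single promoters. In untreated Raji the shares of pairs were 93.8%, 93.7% and 93.4% in replicates 1 to 3, in untreated NALM6 66.9%, 92.2% and 92.9%, and in untreated REH 94.3%, 85.2% and 90.1%. The lowest share, 62.1%, was that of NALM6 bryostatin replicate 3, which had 5.41 M mapped reads, so that shares below 81% came from that library and from NALM6 replicate 1 in both treatments. The difference between pairs and single promoters was 47.7 percentage points ± 2.82 (SD, n = 18), with pairs higher in 18 of 18 libraries (sign-flip permutation test over libraries, two-sided, p = 1e-05, the smallest that 100000 permutations can give; adjusted over 15 tests, 1.88e-05). Against CpG-rich single promoters it was 29.4 points and against those with a lncRNA behind 20.3 points, again in 18 of 18 libraries. Within lines it was 49.4 points in Raji, 45.6 in NALM6 and 48.2 in REH, with 6 of 6 libraries each (exact sign-flip permutation test, p = 0.0312, the smallest that 6 libraries allow).

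H3K4me2 was likewise more frequent at pairs. Its share over the 18 libraries was lowest at 42.2%, had a median of 90.2% and was highest at 94.6% of pairs, against 22.6%, 43.8% and 53.9% of single promoters. The 2 lowest shares, 42.2% and 46.5%, were those of NALM6 replicate 1, untreated and with bryostatin. The difference was 42.1 points ± 7.96 (SD, n = 18, higher in 18 of 18 libraries, permutation p = 1e-05), and 24.3 points against CpG-rich and 16.5 points against lncRNA-flanked single promoters. Without NALM6 replicate 1 of both treatments it was 44.7 points.

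Peaks at pairs were also wider, and for H3K4me3 they held more signal. A pair region holds the starts of both genes and is longer than a single-promoter region by the distance between them. Width and signal were summed over all peaks that overlapped a region. The definition of the regions can thus raise both measures at pairs, and likewise the share of pairs with a peak. How much of the differences it gives was not tested. The median width of the H3K4me3 peaks at a pair was 1039 bp in the lowest library, 2715 bp in the median one and 3440 bp in the highest, against 958, 2280 and 2770 bp at single promoters. The ratio of pairs to single promoters was 1.20 for H3K4me3 (18 of 18 libraries above 1, permutation p = 1e-05) and 1.13 for H3K4me2 (17 of 18, p = 5e-05). Against single promoters with a lncRNA behind, the ratios were 1.08 and 1.05, with 16 of 18 libraries above 1 in each. With above-median peaks alone, the log2 ratio for H3K4me3 width fell from 0.26 to 0.099.

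The signal of a peak is the total over its length, and it was divided here by the median peak of the same library. For H3K4me3 the median pair had 1.09 times that peak in the lowest library, 1.65 in the median one and 2.52 in the highest, whereas the median single promoter had 0.976, 1.04 and 1.56. The ratio of pairs to single promoters ran from 1.03 to 1.82 and averaged 1.48 (log2 0.56 ± 0.23 SD, n = 18, 18 of 18 above 1, permutation p = 1e-05). By line it was 1.65 in Raji, 1.34 in NALM6 and 1.45 in REH. The ratio was 1.43 against CpG-rich single promoters (18 of 18) and 1.19 against those with a lncRNA behind (17 of 18, permutation p = 6e-05). The log2 ratio against all single promoters was smaller per base of peak, at 0.29, and with above-median peaks alone, at 0.15, with both still past the threshold.

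H3K4me2 signal differed little. The median pair had 0.984, 1.20 and 2.52 times the median peak in the lowest, median and highest library, and the median single promoter 1.03, 1.11 and 2.16. The ratio was 1.05 (log2 0.07, 14 of 18 libraries above 1, permutation p = 0.0322, adjusted 0.0402), and this call was lost against CpG-rich single promoters (p = 0.0572). Taken per base of peak instead of in total, the H3K4me2 signal at pairs was lower, by -0.085 on the log2 scale (permutation p = 1e-05). In a comparison added after the data were seen, the log2 signal ratio of pairs over single promoters was larger for H3K4me3 than for H3K4me2 by 0.49 (permutation p = 1e-05).

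**Figure D1:**
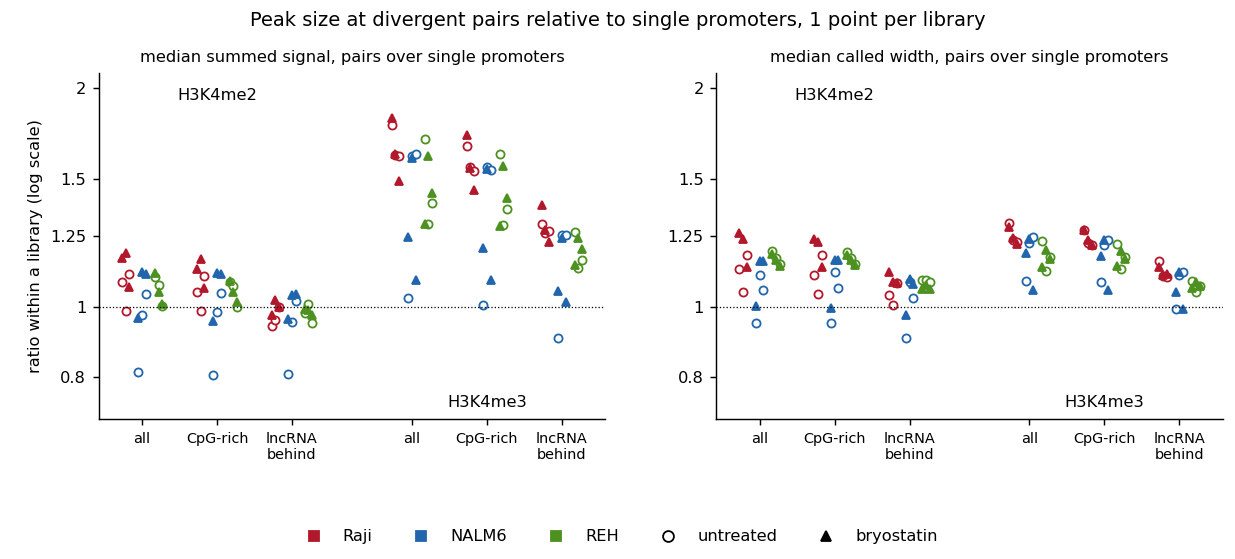
Ratio of divergent pairs to single promoters in median peak signal and median peak width (log axis, 1 means equal), for H3K4me2 and H3K4me3 against all, CpG-rich and lncRNA-flanked single promoters. Each point is 1 library and colours give the line; all 18 H3K4me3 points for signal against all single promoters lie between 1.03 and 1.82.

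The 3 lines were compared with each other for these differences in 18 exact permutation tests of 6 against 6 libraries, and the lowest adjusted p was 0.0649. For the H3K4me3 presence difference, Raji at 49.4 points stood against NALM6 at 45.6 (unadjusted exact p = 0.00866). No difference between lines passed 0.05 after adjustment.

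Peaks covered more of the stretch behind each start, which in a pair is the neighbour's side. By the rule, this stretch holds the neighbour's start in pairs and no other protein-coding start in single promoters. The definition of the sets can thus give a difference, and its share was not tested. Of the 1 kb behind a start whose own 2 kb window had a peak, 920 bp on average lay under H3K4me3 peaks in pairs and 681 bp in single promoters, a difference of 239 bp (18 of 18 libraries, permutation p = 1e-05). For H3K4me2 the lengths were 904 and 761 bp, a difference of 143 bp (18 of 18, permutation p = 1e-05). Against single promoters with a lncRNA behind, the differences were smaller, at 124 bp for H3K4me3 and 69.7 bp for H3K4me2 (18 of 18 libraries and permutation p = 1e-05 for each).

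**Figure D2:**
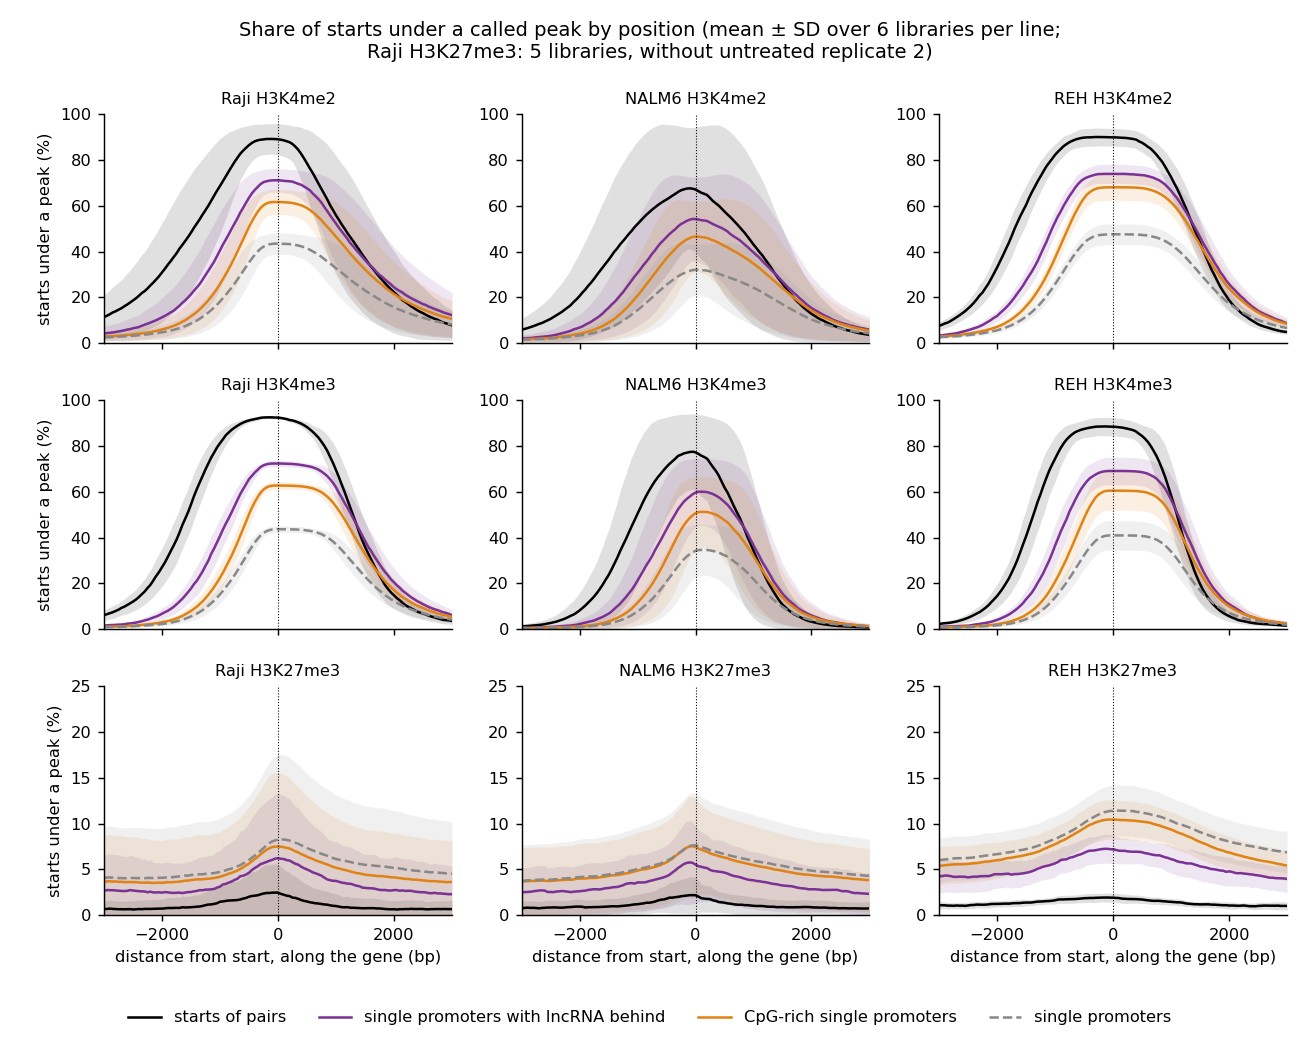
Share of starts under a peak (percent) from 3000 bp behind to 3000 bp into the gene, for pair genes and the 3 classes of single promoters, by mark and line; lines are the mean and bands the SD over 6 libraries, with 5 for Raji H3K27me3, where untreated replicate 2 is left out. At the start itself, 88.5% of pair starts and 41.0% of single starts lay under H3K4me3 in REH, and 1.92% and 11.4% under H3K27me3.

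A single peak usually covered both starts. Among pairs with a peak, 1 peak lay over both starts in 95.9% for H3K4me3 and 93.8% for H3K4me2, as a mean over libraries. Single promoters were scored over the start and a point 234 bp behind it, and pairs exceeded them by 4.88 points for H3K4me3 and 1.55 for H3K4me2 (18 of 18 libraries, permutation p = 1e-05 each). Without NALM6 replicate 1 of both treatments, the H3K4me3 difference was 2.58 points. The H3K4me2 call was lost against CpG-rich single promoters (0.337 points, permutation p = 0.168). Against single promoters with a lncRNA behind, the H3K4me3 call was lost (0.904 points, higher in 5 of 18 libraries, permutation p = 0.492), and the H3K4me2 difference turned to -0.648 points (higher in 1 of 18, permutation p = 0.00011). With starts more than 500 bp apart, 87.1% of the pairs with H3K4me3 and 85.2% of those with H3K4me2 still had 1 peak over both, with NALM6 lowest at 74.0% ± 26.8 and 68.9% ± 41.8 (SD, n = 6).

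The highest point of the largest H3K4me3 peak lay between the starts in 34.0% ± 6.32 of pairs (SD, n = 18), on the side of the minus-strand gene in 34.7% and on that of the plus-strand gene in 31.3%. The highest point of H3K4me2 lay between the starts in 49.5% ± 6.44. At single promoters, where no second start bounds the stretch, the highest point lay behind the start in 18.7% for H3K4me3 and 54.9% for H3K4me2. The higher share for H3K4me2 is thus not particular to pairs. From the closest to the widest of 5 distance bins the H3K4me3 share was 27.5%, 42.3%, 27.5%, 33.9% and 37.5%, and the H3K4me2 share 30%, 52.2%, 50%, 54.8% and 59.6%. The H3K4me2 share was thus lowest in the closest bin and highest in the widest, while the H3K4me3 share had no steady order. The median H3K4me3 width was 2251 bp in the closest bin and 2926 bp in the widest. Both the interval and the region grow from bin to bin, which was not corrected for in these shares and widths.

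Over all 18 libraries, 540 pairs (54.9%) had H3K4me3 in every one, against 16.1% of single promoters and 24.6% of CpG-rich ones, and 41 pairs (4.17%) had it in none, against 45.6% and 23.9%. H3K4me2 was in every library at 292 pairs (29.7%) and in none at 36 (3.66%). The pairs with H3K4me3 throughout were 59.0% of the 849 with 2 CpG-rich starts, 38.3% of the 81 with 1 and 14.8% of the 54 with none. Of the 816 pairs with a GC box at either start, 58.3% had H3K4me3 in all 18 libraries, against 38.1% of the 168 without. For the ETS letters the shares were 58.7% of pairs with and 53.9% of pairs without, and for CCAAT 49.6% of 488 and 60.1%.

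Among 11 textbook pairs found by the rule, 5 had H3K4me3 in all 18 libraries: HSPD1/HSPE1, the mitochondrial chaperonin and its co-chaperonin, PPAT/PAICS of purine synthesis, TAP1/PSMB9 of antigen presentation, HNRNPA2B1/CBX3 and SURF1/SURF2. SURF1 is an assembly factor of cytochrome c oxidase. The H3K4me3 signal at SURF1/SURF2, in multiples of the median peak for replicates 1 to 3, was 3.26, 2.14 and 2.11 in untreated Raji, 3.17, 2.04 and 2.14 in untreated NALM6 and 2.24, 1.52 and 2.18 in untreated REH. With bryostatin, Raji had 2.49, 2.05 and 1.72, NALM6 had 2.99, 2.13 and 1.23, and REH had 1.45, 1.97 and 1.73. In every line the treated and untreated ranges overlapped. HSPD1/HSPE1 was higher, at 7.88, 3.34 and 3.70 in untreated Raji, 4.5, 5.14 and 4.93 in untreated NALM6 and 4.03, 2.74 and 3.55 in untreated REH.

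SARS2, the mitochondrial seryl-tRNA synthetase, and MRPS12, a protein of the mitochondrial ribosome, shared H3K4me3 in 17 libraries. Its signal was 2.40, 1.76 and 1.67 in untreated Raji, above 0.560, 1.17 and 1.15 in untreated NALM6 and 1.42, 1.06 and 1.10 in untreated REH. NALM6 bryostatin replicate 3 was the library without a peak there. NPAT/ATM, which joins a histone gene activator to a DNA damage kinase, had H3K4me3 in 16 libraries.

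Gene families were set out by symbol, and their share in pairs was read against 9.46% for all protein-coding genes, as a description with no test. Of the histone genes, 26 of 74 (35.1%) lay in 14 pairs, which join genes such as H2A and H2B; none had a CpG-rich start, none had H3K4me3 in all 18 libraries, and 12 of the 14 had it in 12 to 17. H2AC1/H2BC1 had none, and H2AC25/H2BC26 had it in 5 Raji libraries and in no other line. Mitochondrial ribosomal proteins had 26 of 78 genes (33.3%) in 27 pairs, of which 10 had H3K4me3 in all 18 libraries and 0 in none. Subunits of respiratory complex I (NDUF) had 17 of 48 genes (35.4%) in 17 pairs, 7 of them with H3K4me3 throughout.

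DNA repair and replication genes had 18 of 55 (32.7%) in 18 pairs, with 9 marked throughout, and RNA polymerase subunits had 11 of 35 (31.4%) in 11 pairs, with 6 marked throughout. Cytosolic ribosomal proteins had a lower share, 14 of 83 genes (16.9%), but 13 of their 15 pairs had H3K4me3 in all 18 libraries. Their median H3K4me3 width was 4187 bp in Raji, 2636 bp in NALM6 and 3153 bp in REH, against 2847, 2025 and 2467 bp over all pairs. Proteasome genes had 9 of 50 (18%) in 10 pairs, with 8 marked throughout, and tRNA synthetases 8 of 35 (22.9%) in 7 pairs, with 6 marked throughout. Zinc finger (ZNF) genes were below the share of all genes, with 39 of 515 (7.57%) in 33 pairs, 10 of them marked throughout and 1 in none.

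The widest H3K4me3 peaks in untreated cells were at STX10/IER2 in every line, together with SNX5/MGME1 and RECQL4/LRRC14 in Raji, ACAP3/PUSL1 and HPS4/SRRD in NALM6, and HPS4/SRRD and RGS19/OPRL1 in REH. STX10 encodes a syntaxin of the Golgi and IER2 an immediate early nuclear protein. The summed width there for replicates 1 to 3 of Raji was 7670, 9180 and 8960 bp. It was 620, 7390 and 7990 bp for NALM6 and 9140, 8570 and 7520 bp for REH, so that NALM6 replicate 1 stood far below the other 8 libraries. SNX5, a sorting nexin of the endosome, and MGME1, an exonuclease of mitochondrial DNA, had 5770, 12030 and 10660 bp in Raji. RECQL4/LRRC14 spread widely, at 2750, 5920 and 18030 bp in Raji.

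H3K27me3 was rare at pairs, rarer than at single promoters of any class. Without untreated Raji replicate 2, the share of pairs with a peak ran from 0% to 11.1% over 17 libraries with a median of 2.03%, against 0.811% to 23.7% with a median of 11.4% for single promoters. It was 0% and 5.79% in untreated Raji replicates 1 and 3, 0.203%, 3.15% and 1.63% in untreated NALM6, and 2.85%, 1.73% and 2.03% in untreated REH. The difference was -8.33 points ± 5.35 (SD, n = 17, lower in 17 of 17 libraries, permutation p = 2e-05), -7.47 points against CpG-rich and -4.97 points against lncRNA-flanked single promoters. With that library it was -5.49 points ± 13.1 (n = 18, permutation p = 0.086), so that the call against all single promoters rests on leaving it out. With all 18 libraries the difference still passed against CpG-rich single promoters (-5.56 points, permutation p = 0.0177, adjusted 0.0266) and against lncRNA-flanked ones (-3.69 points, permutation p = 0.0202, adjusted 0.0303). In that library 47.1% of single promoters, 63.2% of CpG-rich ones and 71.9% of lncRNA-flanked ones had a peak. Within lines the difference was -6.58 points in NALM6 and -10.8 in REH (6 of 6 libraries each, exact permutation p = 0.0312), and -7.50 in the 5 other Raji libraries (exact p = 0.0625, the smallest that 5 allow).

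Where pairs did carry H3K27me3, the peaks held less signal. In the 9 libraries with at least 20 such pairs, again without untreated Raji replicate 2, the median signal was 0.680 times that of single promoters (8 of 9 libraries lower, exact permutation p = 0.00781), and with that library 0.719 times (n = 10, permutation p = 0.0117). Counting only the signal inside the region, in place of whole peaks, ended this call (log2 -0.13 against -0.48, all 10 libraries, permutation p = 0.381).

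In 1 or more of the 17 libraries 183 pairs had an H3K27me3 peak, in 2 or more 80, in 6 or more 24 and in 9 or more 12. The 24 were 2.44% of pairs, against 13.8% of single promoters and 12.7% of CpG-rich ones. Of the 24 pairs, 15 also had H3K4me3 in at least 1 library and 5 had no CpG-rich start. ATP7B/ALG11, of a copper transporter and a mannosyltransferase, and MMS19/UBTD1, of an iron-sulphur assembly protein, had H3K27me3 in 12 of 17 libraries, including 6 of 6 in REH, while H3K4me3 was found in 17 and 18 libraries. The assay was on bulk cells, so that both marks on the same chromosomes and each on different cells or alleles cannot be told apart.

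DUOX2/DUOXA2, a dual oxidase and its maturation factor, had no H3K4 methylation in any library and H3K27me3 in REH and Raji. Its H3K27me3 signal was 12.9, 6.72 and 11 times the median peak in untreated REH, 6.0, 12 and 17.2 with bryostatin, and absent in all 6 NALM6 libraries. In Raji it was 0, 2.06 and 7.96 untreated and 1.36, 0.731 and 9.09 with bryostatin. DCST2/DCST1, which encode membrane proteins of sperm, had H3K27me3 at 0, 6.07 and 24.2 in untreated Raji, of which 6.07 is from the library that stood apart. It was also found in 3 NALM6 libraries, at 0.610 to 1.12, and in none of REH. Like CRYAB/HSPB2, of 2 small heat shock proteins, they were among 35 pairs with neither H3K4 mark in any library, of which 13 had no CpG-rich start. The others included ABCG5/ABCG8, the sterol transporter of liver and gut, DUOXA1/DUOX1, FOXL2/FOXL2NB, OR11A1/OR2H1 of the olfactory receptors and PLCZ1/CAPZA3 of sperm. A further 6 pairs had H3K4me2 alone in some library and 1 had H3K4me3 alone.

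By the share of the region under H3K27me3 in untreated cells, the leading pairs of REH were DUOX2/DUOXA2 and ZFYVE28/CFAP99 at 100% and CCDC78/HAGHL at 99.5%, and those of NALM6 were C11orf21/TSPAN32 at 87%, DUSP15/TTLL9 at 82.1% and SGSH/SLC26A11 at 66.7%. In Raji 11 pairs tied at 66.7%, with replicates 2 and 3 covering them whole and replicate 1 not at all, and DCST2/DCST1, CRYAB/HSPB2 and DUOX2/DUOXA2 came first in table order. Without replicate 2 the leading Raji pairs were DCST2/DCST1, H2AC25/H2BC26 and PDZD7/SFXN3 at 50%.

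Few pairs had H3K4me3 in 1 line and not in another. Counting pairs with a peak in 3 of 3 untreated libraries of a line and 0 of 3 of another, 17 pairs (1.73%) had H3K4me3 in Raji and not NALM6, against a background of 2.95% over pairs and single promoters, and 10 (1.02%) in Raji and not REH, against 2.19%. In the other direction 4 pairs (0.407%) had it in NALM6 and not Raji, against 1.66%, and 8 (0.813%) in REH and not Raji, against 2.82%. Between the leukaemia lines, 5 pairs (0.508%) had it in REH and not NALM6, against 1.65%, and 0 the other way, against 0.379%. In all 6 directions the share of pairs was below the background. For H3K4me2 the counts were 33 in Raji and not NALM6 (background 4.56%), 3 in Raji and not REH (1.52%), 2 in NALM6 and not Raji (2.16%), 0 in NALM6 and not REH (0.373%), 14 in REH and not Raji (7.17%) and 52 in REH and not NALM6 (8.33%). These counts rest on peak calls, and NALM6 replicate 1, with its shorter peaks, is among the 3 NALM6 libraries. Most pairs counted as without H3K4me2 in untreated NALM6 did have a peak in bryostatin NALM6 libraries. WBP11/C12orf60 and TRMT5/SLC38A6 had it in 3 of 3, while others, such as CHPF/TMEM198, had it in 0. The counts thus do not show that NALM6 lacks the mark at these pairs.

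CHPF/TMEM198, of a chondroitin polymerising enzyme and a membrane protein, was marked in opposite ways in Raji and REH. Its H3K4me3 signal was 3.32, 2.82 and 2.94 times the median peak in untreated Raji and 3.29, 3.03 and 2.81 with bryostatin, with no peak in any of the 12 libraries of the other lines. Its H3K27me3 signal was 8.75, 3.77 and 1.26 in untreated REH and 3.43, 7.91 and 7.50 with bryostatin, and 3 NALM6 libraries also had a peak. In untreated Raji H3K27me3 was 0, 4.92 and 0.726, and the middle value is the library that stood apart. OSBPL10/ZNF860, whose first member binds oxysterols, had H3K4me3 at 4.10, 2.36 and 2.48 in untreated Raji, at 0.279 to 0.367 in 3 REH libraries and in none of NALM6. It had H3K4me2 in 17 of 18 libraries and H3K27me3 in 4 NALM6 and 6 REH libraries, so that both marks had peaks in its region in these lines. Whether those peaks overlapped each other was not measured.

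DUSP15/TTLL9, of a phosphatase and a tubulin ligase, differed the other way between Raji and REH in H3K4me3. Its H3K4me3 signal was 1.68, 1.17 and 1.53 in untreated REH and 0.890, 1.37 and 1.12 with bryostatin, with no peak in Raji. In REH it had no H3K27me3, and in Raji it had a peak in 2 libraries apart from untreated replicate 2. In NALM6 its H3K27me3 signal was 2.49, 9.05 and 3.32 untreated and 1.76, 9.70 and 32.3 with bryostatin, beside weak H3K4me3 of 0.210 and 0.262 in untreated replicates 2 and 3. TBC1D16/CCDC40, of a Rab GTPase-activating protein and a ciliary protein, had H3K4me3 at 1.59, 1.52 and 1.44 in untreated NALM6 and 1.53, 0.995 and 1.17 in untreated REH, with none in Raji.

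COL4A1/COL4A2 and COL4A4/COL4A3 encode chains of basement membrane collagen and take the same divergent arrangement. COL4A4/COL4A3 had H3K4me3 at 1.58, 1.06 and 1.14 in untreated Raji and 1.20, 1.04 and 0.960 with bryostatin, and none in the other lines. COL4A1/COL4A2 had H3K4me2 in REH alone, at 1.05, 0.790 and 0.841 untreated, together with H3K27me3 at 10.2, 4.86 and 8.30. ZFYVE28/CFAP99 had the highest H3K27me3 of the named pairs, at 73.0, 38.1 and 7.37 in untreated REH, and weak H3K4me3 in Raji of 0.510, 0.481 and 0.449. C11orf21/TSPAN32, whose second member is a tetraspanin of blood cells, had H3K4me2 at 0, 1.41 and 1.48 and H3K27me3 at 3.24, 6.06 and 3.20 in untreated NALM6.

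**Figure D3:**
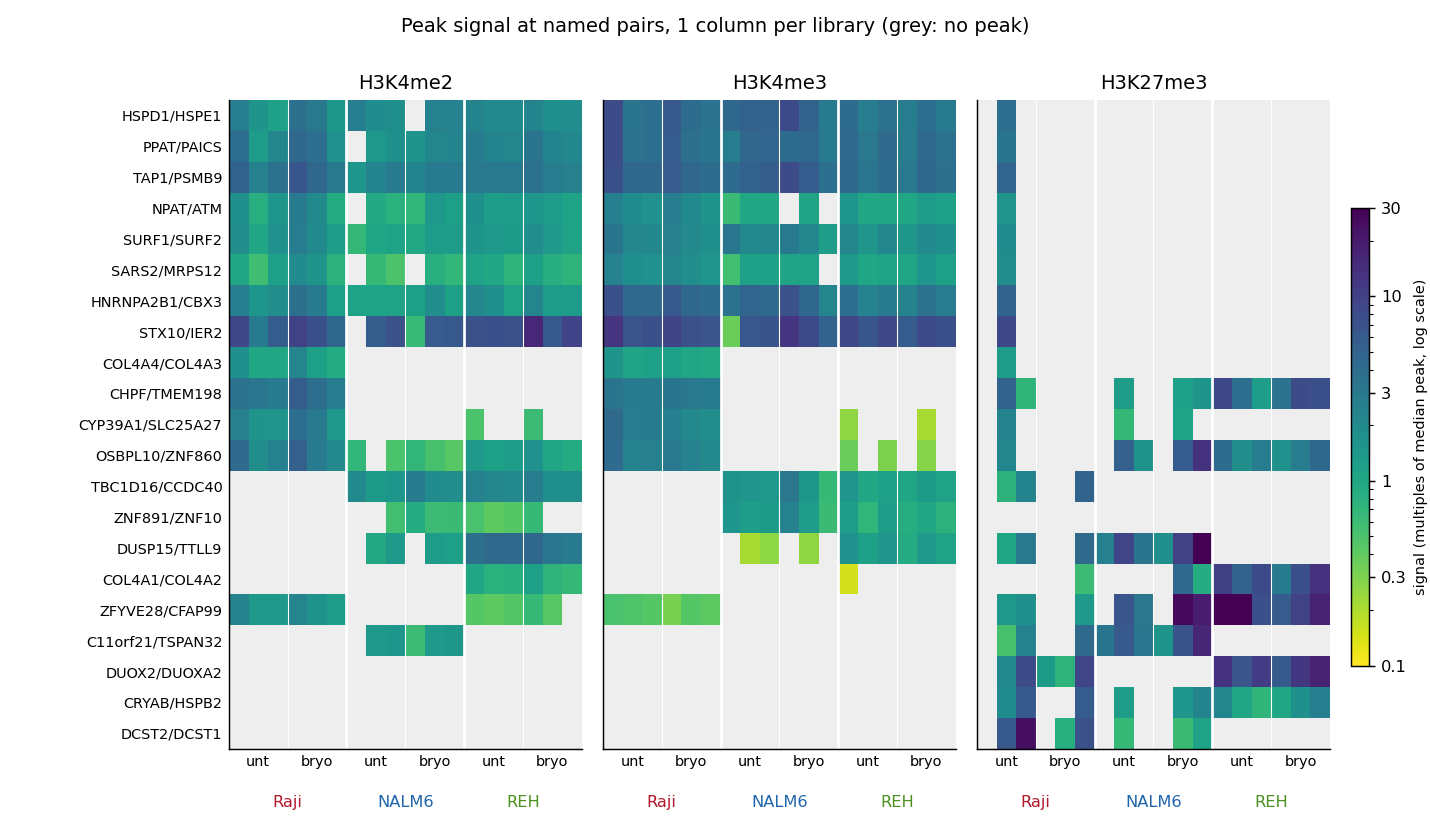
Signal at 21 named pairs in the 18 libraries of each mark, in multiples of the library's median peak (log colour scale with values above 30 drawn as 30, grey for no peak), with libraries ordered by line, treatment and replicate. H3K4me3 at CHPF/TMEM198 appears in the 6 Raji libraries alone, and H3K27me3 at DUOX2/DUOXA2 in all 6 REH libraries and none of NALM6.

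The shares of pairs with a mark overlapped between bryostatin and untreated libraries in every line and mark. For H3K4me3 the change was -0.474 points in Raji (exact permutation p = 0.7), -5.59 in NALM6 (exact p = 0.6) and -0.982 in REH (exact p = 0.7). For H3K4me2 it was 4.47 points in Raji, 8.30 in NALM6 and -1.73 in REH (exact p = 0.5, 0.5 and 0.7). For H3K27me3 it was 3.22 points in NALM6 and -0.169 in REH (exact p = 0.5 and 0.7), and in Raji -28.7 points with untreated replicate 2 and 0.288 without it. In NALM6 the H3K4me2 share was higher with bryostatin in 3 of 3 same-numbered pairs of libraries (exact sign-flip permutation p = 0.25, the smallest that 3 pairs allow). The log2 ratio of pairs to single promoters in median H3K4me2 signal changed by 0.10 (Raji), 0.18 (NALM6) and -0.00046 (REH), and that in H3K4me3 signal by -0.03, -0.10 and -0.01 (exact permutation p = 0.3 or more). Groups of 3 against 3 cannot go below an exact p of 0.1, so that no change of this kind could have passed 0.05, and these p-values do not show that the shares were alike. In NALM6 7 pairs (0.711%) gained H3K4me2 in 3 of 3 treated against 0 of 3 untreated libraries, against a background of 0.438%; they were WBP11/C12orf60, DIS3/PIBF1, TRMT5/SLC38A6, ALKBH1/SLIRP, RECQL5/SAP30BP, POLR1A/PTCD3 and RABL3/GTF2E1. All 7 already had H3K4me3 in 2 or 3 of the untreated NALM6 libraries. The other 17 combinations of line, mark and direction had 0 such pairs. Their backgrounds were 0.0296% for H3K4me2 gained in Raji, 0.0237% for H3K4me2 gained and 0.00592% for H3K4me2 lost in REH, 0.00592% for H3K4me3 lost in Raji, 0.0237% for H3K27me3 lost in REH, and 0% for the rest.

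Peak signal was then tested region by region with limma over all merged peak regions that had a peak in all 6 libraries of a line, with Benjamini-Hochberg adjustment over all of them; this filter kept 294 to 838 merged pair regions, which held 313 to 906 of the 984 pairs. In REH, 5 of the 761 pair regions tested for H3K4me3 passed an adjusted p of 0.05, of which 3 were higher and 2 lower with bryostatin, against backgrounds of 0.815% higher and 0.857% lower over all regions. At SNX5/MGME1 (chr20:17963941-17972180) the signal was 1.92, 1.83 and 1.68 times the median tested region in untreated REH and 2.20, 2.35 and 2.48 with bryostatin (log2 change 0.37, SE 0.069, limma adjusted p = 0.0186). The groups did not overlap there, which was also so in 17.6% of all regions tested. The peaks there spanned 5470, 5580 and 2090 bp untreated and 6110, 6400 and 8240 bp with bryostatin. Taken per base of peak, the same region changed by -0.33, so that its direction depends on the measure.

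PDCD10/SERPINI1 (chr3:167733991-167736370), of a vascular adaptor protein and neuroserpin, had 1.10, 1.06 and 0.875 untreated and 1.34, 1.29 and 1.37 with bryostatin (log2 change 0.40, SE 0.086, limma adjusted p = 0.0375). SMC6/GEN1 (chr2:17751951-17755780), both of DNA repair, had 1.60, 1.53 and 1.37 against 1.83, 1.92 and 1.81 (0.31, SE 0.069, limma adjusted p = 0.0489). Lower with bryostatin were RGS19/OPRL1 (chr20:64075921-64085060), of a regulator of G protein signalling and the nociceptin receptor, at 3.87, 4.27 and 4.0 against 2.85, 3.49 and 3.02 (-0.38, SE 0.083, limma adjusted p = 0.0414), and AKR7A2/SLC66A1 (chr1:19310421-19313770), at 1.58, 1.65 and 1.79 against 1.27, 1.35 and 1.43 (-0.31, SE 0.070, limma adjusted p = 0.0479). The treated and untreated libraries did not overlap at any of the 5. The 5 were called on the same values, so that this adds no support, and 17.6% of all regions tested had no overlap. At all 5 the call was lost, with 0 regions past the threshold, when the maximum or the mean signal of the peaks was used in place of the total, and when values were not centred. The size of the change was kept at AKR7A2/SLC66A1 (-0.37 for the mean and -0.32 for the maximum) and less so at PDCD10/SERPINI1 (0.32 and 0.26), while SMC6/GEN1 fell to 0.06 for the mean and RGS19/OPRL1 to -0.12. None of these calls was left without REH untreated replicate 2 or without REH bryostatin replicate 3, and 1 was left without REH bryostatin replicate 1 or 2.

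In the other lines and marks limma called 0 pair regions. The backgrounds given here are shares of all regions past the adjusted threshold. In Raji the counts were 0 of 838 for H3K4me3, with a background of 0.155% higher, and 0 of 717 for H3K4me2, with a background of 0%. In NALM6 they were 0 of 504 for H3K4me3 and 0 of 294 for H3K4me2, both with a background of 0%. In REH H3K4me2 was 0 of 764, with backgrounds of 1.42% higher and 0.0371% lower. The median SE of the log2 change at pair regions was 0.26 for H3K4me3 and 0.28 for H3K4me2 in NALM6. In REH it was 0.074 and 0.10. Changes of the size called in REH could thus go uncalled in NALM6. With the replicate number as a block, more regions were called overall: 1.06% higher and 0.398% lower in Raji H3K4me3, 2.47% and 0.361% in REH H3K4me2, 1.23% and 1.56% in REH H3K4me3, and 0% in the other 3 comparisons. In that fit limma called 1 Raji H3K4me3 region, CYP39A1/SLC25A27, of an oxysterol hydroxylase and a mitochondrial carrier (log2 change -0.47, SE 0.094, adjusted p = 0.00848 with the block and 0.188 without). Its H3K4me3 signal in multiples of the median peak was 4.18, 2.75 and 2.85 in untreated Raji and 2.58, 2.06 and 1.79 with bryostatin, and the pair had no H3K4me3 in NALM6. In REH H3K4me2 the block added HCFC1R1/THOC6 (0.36, adjusted p = 0.0126 with the block and 0.0579 without). In REH H3K4me3 it added DUSP15/TTLL9, at 1.09, 1.13 and 1.251 times the median tested region untreated and 0.869, 0.994 and 0.965 with bryostatin (-0.30, limma adjusted p = 0.0432 with the block and 0.105 without). In multiples of the median peak, as given earlier, the treated and untreated values of this pair overlapped, so that their separation depends on the scaling.

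Pair regions whose 3 treated and 3 untreated libraries did not overlap were 11.3% of those tested for H3K4me2 and 10.9% for H3K4me3 in Raji, against backgrounds of 10.7% and 12.4%. They were 8.84% and 4.17% in NALM6, against 10.4% and 5.11%, and 11.1% and 14.3% in REH, against 14.7% and 17.6%. In 5 of these 6 comparisons the share among pairs was thus below that over all regions, and Raji H3K4me2 was the exception.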

How the data were processed

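The authors trimmed the paired-end reads with Trim Galore, aligned them to hg38 with Bowtie2, made RPKM-normalised tracks and called peaks per library with SEACR (tools and build per the submitters' processing notes and the study's methods). The deposited peak files give each peak's total signal, which was the signal used here. IgG libraries were not analysed here. A region had a mark if any peak overlapped it; width and signal were summed over those peaks, and measures other than presence needed at least 20 pairs with a peak. Pairs were compared with single promoters by sign-flip permutation over libraries (100000, two-sided) and treatments by exact permutation. limma 3.58.1 (R 4.3.3, empirical Bayes with trend) was run on log2 summed signal of merged peak regions, centred on the median region, over all regions of a line and mark, with no pseudocount since only regions with a peak in all 6 libraries entered. Python 3.11.15, pandas 2.3.3, pysam 0.24.0 and GenomicRanges 1.54.1 were used. The limma step was tested on simulated data. The members, gene lists and tests were chosen with earlier results of these data known. The named pairs were 13 textbook pairs (11 found; some are not reported here), and, per line, up to 3 each of the largest called changes without overlap, the largest H3K27me3 cover, the strongest H3K4me3 in 3 of 3 against 0 of 3 libraries and the widest H3K4me3, besides families by symbol; other names were chosen after their values were seen. Same-numbered replicates deviated together (correlations above 0.1 in every pair) for all marks and lines tested except Raji H3K4me2 (0.417, -0.250 and -0.308). The main limma fit and the exact tests of 3 against 3 libraries did not use this pairing. It entered limma as a block in an alternative fit, whose calls are given beside the main ones. Motifs were searched as exact letters on both strands. Permutation p-values cover the spread between libraries only, and shallower libraries give fewer peaks.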

Additional observations from a re-analysis of the deposited data

How the results depend on the processing

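Over 41 results and 627 alternatives, 515 were scored as kept. For most results this meant the same direction and side of the threshold. Counts of limma calls were scored by whether the count stayed equal or close. The bryostatin permutation tests had too few libraries to pass the threshold, so that only their direction could change. Presence, width, signal and upstream length of H3K4me3 kept direction and side throughout, as did presence, width and upstream length of H3K4me2. Differences below are pairs against single promoters, with signal and width on the log2 scale.

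H3K4me2 signal, 0.07, was not stable: it was 0.052 against single promoters isolated by 2 kb, 0.058 against CpG-rich ones, -0.034 against lncRNA-flanked ones, -0.073 with above-median peaks, -0.035 with equal numbers of peaks, -0.0024 for the maximum and -0.085 per base. Leaving out each library gave 0.059 to 0.091, and missed the threshold without Raji untreated replicate 3, Raji bryostatin replicates 1 or 2, NALM6 bryostatin replicates 2 or 3, or REH bryostatin replicate 1. One peak over both starts gave, for H3K4me2, 0.337 points against CpG-rich and -0.648 against lncRNA-flanked promoters, and for H3K4me3 0.904 against the latter. H3K27me3 presence with all 18 libraries was -5.56 against CpG-rich, -3.69 against lncRNA-flanked promoters and -3.60 with equal numbers of peaks, each past the threshold, and leaving out each library gave -8.33, without Raji untreated replicate 2, to -4.79. H3K27me3 width was -0.23 over 10 libraries and did not pass (permutation p = 0.072). It was -0.17 against lncRNA-flanked promoters and -0.20 with above-median peaks. Leaving out each library gave -0.29 to -0.19, and it passed without REH bryostatin replicate 2 or 3. H3K27me3 signal inside the region was -0.13, no longer past the threshold, upstream length with above-median peaks 79.1 bp, and the spanning share 0.190 (2 kb), 0.601 (no read-through genes) and -1.11 to 1.07 leaving out libraries. The cause of these changes was not tested.

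For bryostatin, equal numbers of peaks gave 0.237 points and 0.016 (signal ratio) for Raji H3K4me3, 0.032 (signal ratio) for REH H3K4me2, and 0.474 points and 0.031 for REH H3K4me3. Leaving out each library, presence changed by -0.339 to 7.23 points for Raji H3K4me2, -0.745 to 0.0678 for Raji H3K4me3, -44.7 to 0.288 for Raji H3K27me3, -4.29 to 22.9 for NALM6 H3K4me2, -15.2 to 2.56 for NALM6 H3K4me3, -4.13 to 1.10 for REH H3K4me2, -3.34 to 1.34 for REH H3K4me3 and -0.407 to 0.152 for REH H3K27me3. The log2 signal ratio of pairs to single promoters changed by -0.10 to 0.042 for Raji H3K4me3, -0.32 to 0.024 for NALM6 H3K4me3, -0.038 to 0.032 for REH H3K4me2 and -0.090 to 0.10 for REH H3K4me3. The H3K27me3 signal comparison was not run in any line, because too few libraries had 20 pairs with a peak.

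limma called 5 REH H3K4me3 pair regions, 6 with the replicate block, 4 after quantile scaling, 3 with a peak required in 3 of 6 libraries, 1 without a trend, and 0 for maximum signal, mean signal or no centring; leaving out libraries gave 0 to 7. For REH H3K4me2, 0 became 1 with the replicate block, 3 after quantile scaling, 1 with a peak in 3 of 6 libraries, and 0 to 1 leaving out libraries (1 without REH untreated replicate 1). For Raji H3K4me3 the replicate block gave 1. The block changed no other call. SNX5/MGME1 turned to -0.33 per base. NALM6 without replicate 1, chosen after seeing the data, gave 0 calls.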
